A study of Mus musculus with 6 samples.

Results

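RNA came from sorted bone marrow cells labelled megakaryocytes (MKs). In it, a set of 10 genes of the endoplasmic reticulum (ER) stress response and the integrated stress response (ISR) were followed. They were chosen by symbol from the deposited table: the sensors *Atf6*, *Ern1* and *Eif2ak3*, the transcription factors *Atf4*, *Xbp1* and *Ddit3*, and the targets *Hspa5*, *Asns*, *Chac1* and *Trib3*. All 10 were among the 16579 genes listed, and all 10 were among the 12256 genes that passed the expression filter. Libraries came from 3-month-old mice, 3 from Becn1f/f mice and 3 labelled Becn1f/f;Pf4-iCre. Both groups carry floxed *Becn1*, and the second also carries Cre recombinase under *Pf4* (platelet factor 4) regulatory sequence, which is meant to delete *Becn1* in the megakaryocytic lineage. No treatment or sex is given for these libraries. The labels number the libraries but do not say whether each is 1 animal or a pool, so p-values measure only the spread between these 6 samples.

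The unfolded protein response is the program by which cells answer misfolded protein in the ER. Membrane sensors start it: PERK (*Eif2ak3*), IRE1 (*Ern1*) and ATF6. PERK phosphorylates the translation factor eIF2, which lowers protein synthesis but favors translation of ATF4, and other kinases that phosphorylate eIF2 under amino acid shortage, heme shortage or viral RNA feed into the same ISR. ATF4 then induces amino acid enzymes such as asparagine synthetase (*Asns*) and, under prolonged stress, CHOP (*Ddit3*). IRE1 cuts *Xbp1* mRNA to allow synthesis of the active factor, and ATF6 is released from the ER to induce chaperones such as BiP (*Hspa5*). Autophagy, in which Beclin 1 acts, also clears ER and supplies amino acids.

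Known sequence elements of this response were read for the genes whose values are described. Promoters were taken from RefSeq (GRCm38.p6), which matched 9 of the 10 genes, and read over the 250 bases upstream of the start site on both strands. The ATF4 element was searched as TGATGNAA, whose reverse complement is TTNCATCA. The ER stress element was searched as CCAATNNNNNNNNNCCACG. The ATF4 element was found upstream of *Asns* and *Chac1* and the ER stress element upstream of *Hspa5*, whereas 3.45% and 0.113% of all 32851 promoters hold them. Capitals mark the match on the strand of the gene.
Asns, minus strand, chr6:7693210-7693272: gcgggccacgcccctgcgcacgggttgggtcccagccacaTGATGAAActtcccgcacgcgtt
Chac1, plus strand, chr2:119351009-119351116: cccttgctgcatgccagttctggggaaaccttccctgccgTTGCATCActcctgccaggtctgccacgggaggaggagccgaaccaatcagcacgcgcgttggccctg
Hspa5, plus strand, chr2:34771985-34772089: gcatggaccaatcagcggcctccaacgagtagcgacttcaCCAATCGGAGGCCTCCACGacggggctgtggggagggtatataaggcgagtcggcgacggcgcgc
The matches begin 23, 193 and 65 bases before the respective RefSeq start sites. In the GENCODE M21 annotation *Asns* and *Hspa5* begin farther out, so their matches lie within the annotated genes, whereas that of *Chac1* lies upstream. A match describes these letters and was not tested as a binding site. Elements farther away or with other letters were not searched, so a gene without a match may still hold such an element.

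In *Xbp1*, capitals mark the 26 bases of coding sequence that IRE1 excises. They lie in exon 4 of 5, at chr11:5524279-5524304 on the plus strand of GRCm38 (GENCODE M21). Their removal shifts the reading frame, since 26 leaves a remainder of 2 when divided by 3.
Xbp1, coding strand: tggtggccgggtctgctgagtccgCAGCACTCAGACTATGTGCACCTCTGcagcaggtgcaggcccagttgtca
The deposited values are sums over each gene, so the spliced and unspliced forms of *Xbp1* are counted together.

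Total estimated counts per library lay between 16467560 and 17156728. Counts were scaled by TMM and are given as CPM (counts scaled to a common library size), which compare libraries for 1 gene. The deposited FPKM values, which are also scaled for transcript length, were used to compare genes. *Becn1* itself was at 118 ± 9.37 CPM in Becn1f/f and 106.9 ± 2.74 CPM in the libraries labelled Becn1f/f;Pf4-iCre (SD, n = 3 each), with overlapping groups, a log2 fold change of -0.15 and an adjusted p of 0.94 in edgeR's quasi-likelihood test. It shares 43.9% of its annotated exonic bases with *Cntd1* on the other strand, and no source used here says whether counting used strand. The 20 megakaryocyte and platelet markers together held 0.0456% to 0.0549% of normalized counts per library. Summed, these markers were at 200 to 250 FPKM per library, and the 16 neutrophil markers at 17790 to 39727 FPKM. As single examples, the platelet von Willebrand factor receptor subunits *Gp9* and *Gp1bb* were at 2.09 and 1.01 FPKM on average. Both lay below the mean of their list, so other megakaryocyte markers were higher. The neutrophil genes *Mpo* and *Elane* were at 1411 and 934 FPKM. As a set, the markers of the labelled cell type were thus low beside those of neutrophils. The sort gate of these RNA-seq libraries is not restated in the sources used here, which elsewhere identify MKs as CD41+ cells. In such bulk samples, fewer cells of a type and less RNA per cell cannot be told apart.

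Levels of the 10 genes differed widely per length. *Hspa5*, the most abundant ER chaperone of the HSP70 family, was at 642 FPKM on average over the 6 libraries and ranked 141 of all 16579 genes. *Atf4* followed at 361 FPKM and rank 245, *Xbp1* at 93.8 FPKM and *Ddit3* at 71.0 FPKM. The sensors lay close together, with *Ern1* at 23.0, *Eif2ak3* at 22.7 and *Atf6* at 22.3 FPKM. *Asns* was at 5.85 FPKM, near the middle of all genes (percentile 50.4). *Chac1*, which degrades glutathione, and *Trib3*, a pseudokinase that restrains CHOP and AKT, were lowest at 1.87 and 1.13 FPKM. Across the 6 libraries, the ranges of *Xbp1* and *Ddit3*, of the 3 sensors, and of *Chac1* and *Trib3* overlapped, so their order within those groups is not separated by the spread. *Asns* and *Chac1* met at their ends, where the lowest library of *Asns* (3.38 FPKM) was just under the highest of *Chac1* (3.42 FPKM). The ranges of the other neighbors in the order did not overlap.

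**Figure D1:**
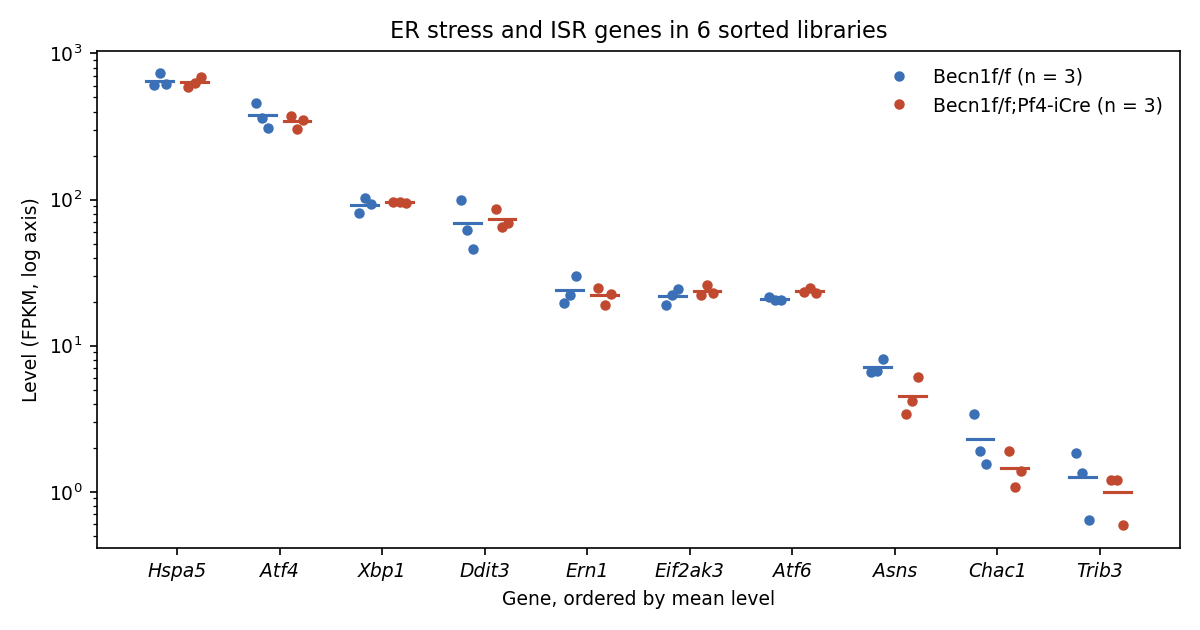
Level of each gene in FPKM (log axis) in the 3 Becn1f/f libraries (blue) and the 3 libraries labelled Becn1f/f;Pf4-iCre (red). Points are libraries 1, 2 and 3 from left to right and lines are means. *Asns* and *Atf6* are the genes whose colors do not overlap; *Hspa5* lies between 587 and 731 FPKM in all libraries.

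One question of the design is whether these stress genes differ between the libraries labelled Becn1f/f and those labelled Becn1f/f;Pf4-iCre. Of the 10 genes, 1 passed the thresholds for a differentially expressed gene (DEG), a fold change of at least 1.5 and an unadjusted *P* under 0.05. This was *Asns*, which was lower in the libraries labelled Becn1f/f;Pf4-iCre. Over all tested genes, 2.3% were DEGs, with 1.36% higher and 0.938% lower. An unadjusted *P* under 0.05 was likewise found for *Asns* alone, against 6.31% of all tested genes (3.92% higher, 2.39% lower). After Benjamini-Hochberg adjustment of the edgeR test, 0 of the 10 genes and 0.0408% of all tested genes were under 0.05, and DESeq2 gave 0 of the 10, where it called 77 of all 12256 tested genes. Of the 10, 4 had a positive and 6 a negative log2 fold change, with a median of -0.06 (all tested genes, -0.02).

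*Asns*, which makes asparagine from aspartate and glutamine, was at 11.1, 10.9 and 12.9 CPM in Becn1f/f libraries 1, 2 and 3. It was at 5.75, 6.82 and 9.92 CPM in libraries 1, 2 and 3 labelled Becn1f/f;Pf4-iCre. Every Becn1f/f library was above every library of the other group, a separation seen for 10.6% of all tested genes. The means were 11.6 ± 1.11 and 7.496 ± 2.16 CPM (SD, n = 3 each). On the log2 scale the difference was -0.64, with a standard error of 0.21 and a 95% interval of -1.10 to -0.17. The unadjusted *P* was 0.011 and the adjusted p was 0.51 in edgeR's quasi-likelihood test, and an exact two-sided permutation test gave p = 0.1, the smallest that 3 against 3 allows. The value depended on single libraries. Without Becn1f/f;Pf4-iCre library 1 the log2 fold change was -0.47 (unadjusted *P* of 0.053 in edgeR). It fell short of the fold threshold also without Becn1f/f;Pf4-iCre library 2, at -0.57, and without Becn1f/f library 3, at -0.55.

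Markers of some blood cells were, like *Asns*, lower in the libraries labelled Becn1f/f;Pf4-iCre. Of 16 tested neutrophil markers, 15 were lower in the libraries labelled Becn1f/f;Pf4-iCre, and 7 of these had an unadjusted *P* under 0.05. Their summed level was 12356 to 17480 CPM in Becn1f/f and 9586 to 12917 CPM in the other group, with none of the markers at 0 in any library. All 13 tested erythroid markers were lower, 9 with an unadjusted *P* under 0.05 and 6 as DEGs (all tested genes, 2.39% and 0.938% lower). Their sums were 430.8 to 689.4 and 329.0 to 434.8 CPM, and none was at 0. The lowest Becn1f/f erythroid sum was that of library 3, the highest library of *Asns*. The lowest erythroid sum of the other group was that of library 1, the lowest of *Asns*. Neutrophil sums in libraries 1, 2 and 3 labelled Becn1f/f;Pf4-iCre were 9586, 9901 and 12917 CPM, the order of *Asns*. In Becn1f/f they were 17480, 12356 and 14259 CPM, lowest in library 2 as *Asns* was, but highest in library 1. B lineage markers were lower for 13 of 14, and mast cell, basophil and eosinophil markers for 12 of 15 (all tested genes, 54.5%). Of these, 1 and 0 had an unadjusted *P* under 0.05. Both counts depended on single libraries. Without Becn1f/f library 3, 7 of 14 B lineage markers were lower. Without Becn1f/f library 1, 6 of the 15 mast cell, basophil and eosinophil markers were lower and 9 higher. Macrophage markers were higher for 11 of 12. The part of these markers in the *Asns* difference was not tested.

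**Figure D2:**
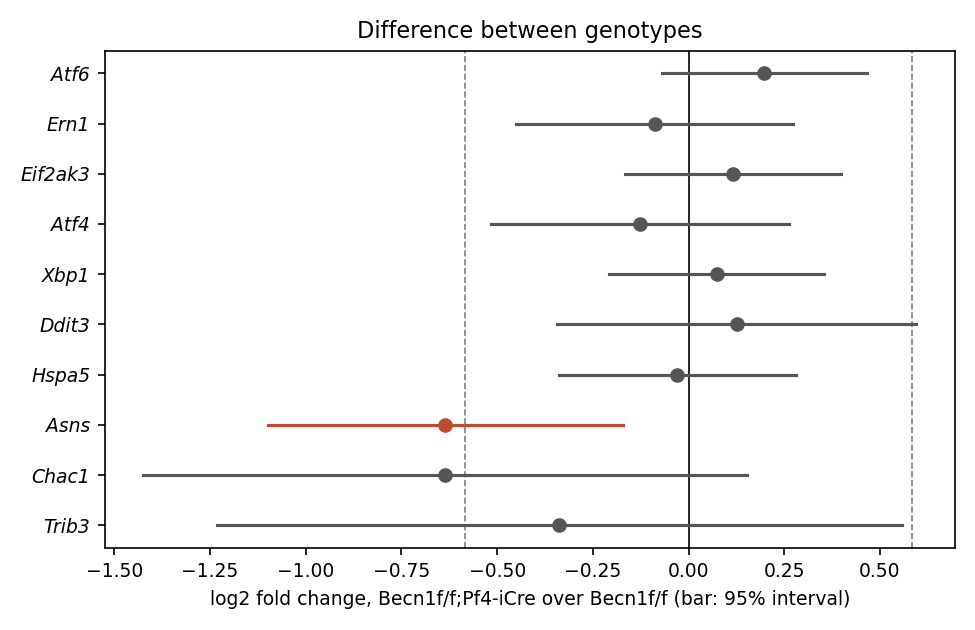
Log2 fold change of each gene between the libraries labelled Becn1f/f;Pf4-iCre and Becn1f/f (n = 3 each), from edgeR's fit over all tested genes. Bars are 95% intervals, dashed lines mark a fold change of 1.5 in either direction, and *Asns*, the 1 DEG, is drawn in red. The intervals of *Chac1* and *Trib3* are the widest.

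Among the sensors, *Atf6*, an ER-anchored transcription factor, also separated the groups. It was at 159, 146 and 144 CPM in Becn1f/f libraries 1, 2 and 3, and at 172, 177 and 165 CPM in libraries 1, 2 and 3 labelled Becn1f/f;Pf4-iCre. The lowest of the latter was above the highest Becn1f/f library. The difference was small, with means of 149.5 ± 8.34 and 171.5 ± 6.33 CPM (SD, n = 3 each) and a log2 difference of 0.20 (95% interval -0.07 to 0.46, unadjusted *P* of 0.13 in edgeR). Omitting any 1 library moved it within 0.17 to 0.25, and *P* was then at least 0.074.

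*Ern1*, the kinase and endoribonuclease IRE1, was at 74.2, 80.0 and 105.7 CPM in Becn1f/f and at 93.3, 69.2 and 82.0 CPM in the other group. The groups overlapped, and the log2 fold change was -0.09 (95% interval -0.45 to 0.27). *Eif2ak3*, which encodes PERK, was at 81.7, 90.2 and 97.4 CPM in Becn1f/f and at 92.1, 105.5 and 94.3 CPM in the other group. Its log2 fold change was 0.12 (95% interval -0.17 to 0.40), and 8.05% of its exonic bases lie under a transcript annotated on the other strand. For all 3 sensors the interval excluded a change of 1.5-fold in either direction, which is 0.58 on the log2 scale.

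*Xbp1* and *Hspa5* were the steadiest of the factors and targets. *Xbp1* was at 160, 194 and 173 CPM in Becn1f/f, and within 181.5 to 190.9 CPM in the 3 libraries labelled Becn1f/f;Pf4-iCre. Its groups overlapped, with a log2 fold change of 0.07 (95% interval -0.21 to 0.35). *Hspa5*, whose promoter stretch with the ER stress element is shown above, was at 1410, 1620 and 1331 CPM in Becn1f/f. In the other group it was at 1361, 1380 and 1529 CPM, again overlapping. The log2 fold change was -0.03 (95% interval -0.34 to 0.28), so a change of 1.5-fold in *Hspa5* lies outside the interval.

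*Atf4*, *Ddit3*, *Chac1* and *Trib3* had the widest ranges within Becn1f/f among the genes followed. These were 0.64, 0.97, 1.05 and 1.26 on the log2 scale, and the next widest was that of *Ern1*, at 0.51. The Becn1f/f range was larger than the genotype difference also for *Ern1*, *Eif2ak3*, *Xbp1* and *Hspa5*, but not for *Asns* and *Atf6*. A range over libraries and a difference of means are not like measures, so this comparison carries no test. *Ddit3*, encoding the factor CHOP, was at 77.3, 48.1 and 39.3 CPM in Becn1f/f libraries 1, 2 and 3, a 1.96-fold span. It was at 67.4, 56.9 and 55.4 CPM in the other group, within the Becn1f/f range. *Chac1* was at 4.39, 2.36 and 1.86 CPM in Becn1f/f and at 2.46, 1.33 and 1.72 CPM in the other group, so library 1 of Becn1f/f stood above the rest. *Trib3* was at 3.26, 2.30 and 1.07 CPM in Becn1f/f and at 2.16, 2.05 and 1.01 CPM in the other group. *Atf4* was at 619, 488 and 397 CPM in Becn1f/f and at 528, 393 and 457 CPM in the other group. In all 4 genes, library 1 was the highest and library 3 the lowest of the Becn1f/f libraries, and library 1 was the highest of those labelled Becn1f/f;Pf4-iCre.

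*Asns* did not share this order. Library 3 was its highest in each group, and Becn1f/f;Pf4-iCre library 1, the highest of its group for *Ddit3*, *Chac1*, *Trib3* and *Atf4*, was the lowest of all 6 for *Asns*. *Asns* and *Chac1* both hold the ATF4 element upstream of their start sites, as printed above, and their libraries were ordered differently. The libraries have no order within a group, and this description carries no test.

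**Figure D3:**
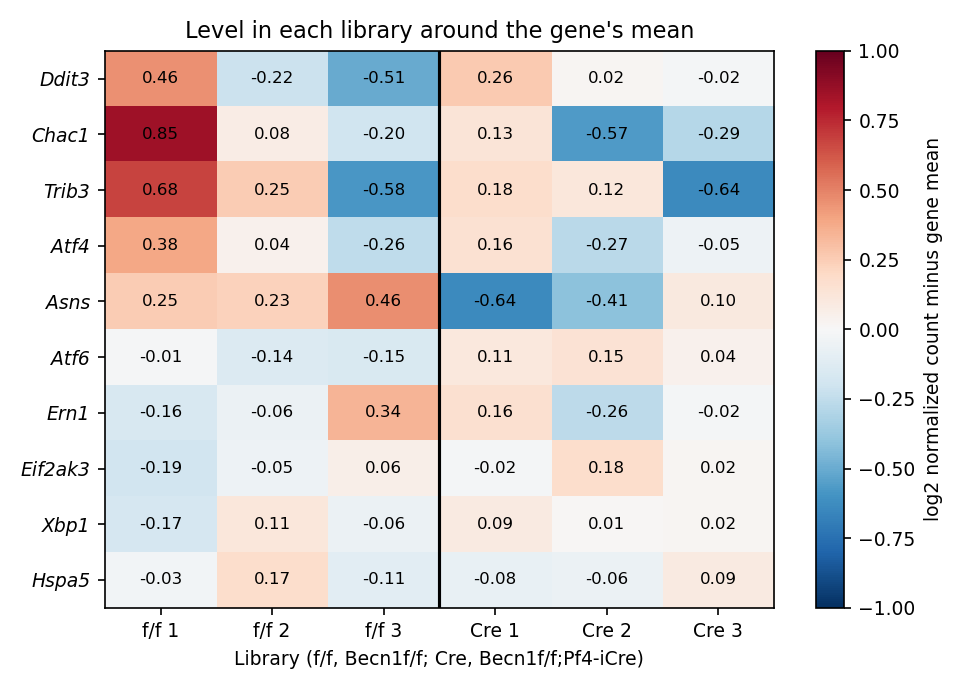
Level of each gene in each library as log2 normalized count minus the gene's mean over 6 libraries (red, above the mean; blue, below), with the black line between Becn1f/f (left) and the libraries labelled Becn1f/f;Pf4-iCre (right). *Ddit3*, *Chac1*, *Trib3* and *Atf4* are highest in Becn1f/f library 1, whereas *Asns* is positive in all 3 Becn1f/f libraries.

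The genotype difference was -0.13 for *Atf4* (95% interval -0.52 to 0.26), 0.13 for *Ddit3* (-0.34 to 0.59), -0.64 for *Chac1* (-1.42 to 0.15) and -0.34 for *Trib3* (-1.23 to 0.56) on the log2 scale. None had an unadjusted *P* under 0.05. The *Atf4* interval excluded a change of 1.5-fold in either direction, and that of *Ddit3* reached just past it. The intervals of *Chac1* and *Trib3*, counted at 22 to 70 and 17 to 52 reads per library, do not exclude such a change. Becn1f/f library 1 decided several of these values. Without it, *Ddit3* was higher in the libraries labelled Becn1f/f;Pf4-iCre, with a log2 fold change of 0.46 (unadjusted *P* of 0.012, adjusted p of 0.35 in edgeR), and *Chac1* went to -0.19, *Atf4* to 0.06 and *Trib3* to 0.05. Without Becn1f/f library 3, *Chac1* went to -0.87 with an unadjusted *P* of 0.033. Leaving out Becn1f/f library 1 also raised the genes with an unadjusted *P* under 0.05 from 773 to 1241 over the whole table.

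Markers of mast cells, basophils and eosinophils stood apart in the same library. Their 15 genes summed to 11895 CPM in Becn1f/f library 1, and to 4990 to 7478 CPM in the other 5 libraries, with none at 0. The immediate early and heat shock genes went the other way, with their lowest sum, 12447 CPM, in Becn1f/f library 1. The part of either in the *Ddit3*, *Chac1*, *Trib3* and *Atf4* levels was not tested.

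The other genes of these pathways were described with 9 lists that held 146 genes, of which 136 were tested. DEGs numbered 3, or 2.21% (all tested genes, 2.3%), with 1 higher and 2 lower. An unadjusted *P* under 0.05 was found for 8, or 5.88% (all tested genes, 6.31%), 4 in each direction. Both shares were close to the background. After adjustment 0 of 136 passed with edgeR (5 of all 12256 genes) and 1, *Pmaip1*, with DESeq2 (77 of all 12256 genes). The median log2 fold change was -0.07 (all tested genes, -0.02).

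Of 7 transcription factors that work beside ATF4, 3 were higher in the libraries labelled Becn1f/f;Pf4-iCre at an unadjusted *P* under 0.05. The share over all tested genes was 3.92%. None of the 7 was lower at that threshold, and none was a DEG. Of 17 alternative fits, *Atf3* passed the DEG thresholds in 2, and *Cebpg* and *Nfe2l2* in 1 each. *Atf3*, a stress-induced repressor, was at 727, 814 and 588 CPM in Becn1f/f and at 1066, 1029 and 1011 CPM in the other group. The groups did not overlap, and the log2 fold change was 0.55 (standard error 0.15, unadjusted *P* of 0.0035, adjusted p of 0.39 in edgeR), short of 1.5-fold. *Atf3* also holds the ATF4 element upstream of its start site, in capitals.
Atf3, minus strand, chr1:191183376-191183483: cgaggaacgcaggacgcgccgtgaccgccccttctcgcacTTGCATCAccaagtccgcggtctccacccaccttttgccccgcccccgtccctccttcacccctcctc
*Cebpg*, a dimer partner of ATF4, was at 57.8, 64.7 and 64.7 CPM in Becn1f/f and at 71.3, 98.1 and 97.7 CPM in the other group, without overlap, for a log2 fold change of 0.51. *Nfe2l2*, the NRF2 factor that PERK can also activate, had overlapping groups and a log2 fold change of 0.41 (unadjusted *P* of 0.039 in edgeR). That *P* lay between 0.0019 and 0.18 when single libraries were omitted. *Cebpb*, *Nupr1* and *Jdp2* had values of -0.19, -0.06 and 0.17, and *Atf5*, another factor translated under the ISR, had -0.43. Without Becn1f/f library 1, *Atf5* was a DEG.

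Like these factors, most macrophage markers and most immediate early and heat shock genes were higher in the libraries labelled Becn1f/f;Pf4-iCre. The order of libraries within a group was not always shared. The immediate early and heat shock sum was highest in Becn1f/f;Pf4-iCre library 3, at 19701 CPM, where *Nfe2l2* was lowest of that group, at 149 CPM. Of 12 tested macrophage markers, 11 were higher and 4 were DEGs (all tested genes, 1.36% higher as DEGs). Their sum was 796 to 838 CPM in Becn1f/f and 856 to 1052 CPM in the other group, with *Timd4* and *Marco* at 0 in at least 1 library. In libraries 1, 2 and 3 labelled Becn1f/f;Pf4-iCre it was 1052, 914 and 856 CPM. *Nfe2l2* and *Atf3* shared that order and *Cebpg* did not. Of 16 tested immediate early and heat shock genes, 14 were higher, 3 of them with an unadjusted *P* under 0.05 (all tested genes, 3.92%). Without Becn1f/f;Pf4-iCre library 3, 8 were higher and 8 lower, with 0 under that threshold. *Fos* and *Dusp1* had log2 fold changes of 0.57 and 0.54. The part of these genes in the *Atf3*, *Cebpg* and *Nfe2l2* differences was not tested.

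ATF4 targets of amino acid supply were mostly lower, as *Asns* was. Of 19 tested, 17 had a negative log2 fold change, with a median of -0.16, where 6677 of all 12256 tested genes were negative. Of these, 2 had an unadjusted *P* under 0.05 (all tested genes, 2.39% lower) and none was a DEG. The negative genes were 13 of 19 without Becn1f/f;Pf4-iCre library 2, and 14 of 19 without Becn1f/f library 1 or Becn1f/f;Pf4-iCre library 3. Sums over all 23 listed genes overlapped, at 1819 to 2341 CPM in Becn1f/f and 1790 to 2148 CPM in the other group. *Phgdh*, which begins serine synthesis, was at 121.5, 154.8 and 151.7 CPM in Becn1f/f and at 100.4, 72.4 and 115.3 CPM in the other group, without overlap. Its log2 fold change was -0.57 (standard error 0.18, unadjusted *P* of 0.0071, adjusted p of 0.45 in edgeR), just short of 1.5-fold. It passed the DEG thresholds in 8 of 17 alternative fits, among them those without Becn1f/f library 1, Becn1f/f;Pf4-iCre library 1 or Becn1f/f;Pf4-iCre library 3. The number of genes of the list with an unadjusted *P* under 0.05 was 1 to 4 when single libraries were omitted. *Shmt2*, which passes serine carbon to folate in mitochondria, had -0.41 with overlapping groups. *Psat1* and *Psph*, the next enzymes of serine synthesis, had -0.16 and -0.25, and the amino acid transporter *Slc38a2*, the most abundant of the list at 125 FPKM, had 0.23. Without Becn1f/f library 1, its highest, *Slc38a2* was at 0.54 (unadjusted *P* of 0.0031 in edgeR), and without Becn1f/f library 3 it was at 0.062.

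The aminoacyl-tRNA synthetases, which charge tRNAs and are ATF4 targets, were negative for 11 of 12, with a median of -0.16. None had an unadjusted *P* under 0.05, and the lowest *P* was that of *Aars*, at 0.056 with a log2 fold change of -0.32. *Nars*, the synthetase for asparagine and the most abundant, had -0.04. The list median stayed between -0.21 and -0.10 under every alternative fit, and that of the amino acid list between -0.21 and -0.12. The lower neutrophil and erythroid markers given beside *Asns* apply to these lists too, and their part was not tested.

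**Figure D4:**
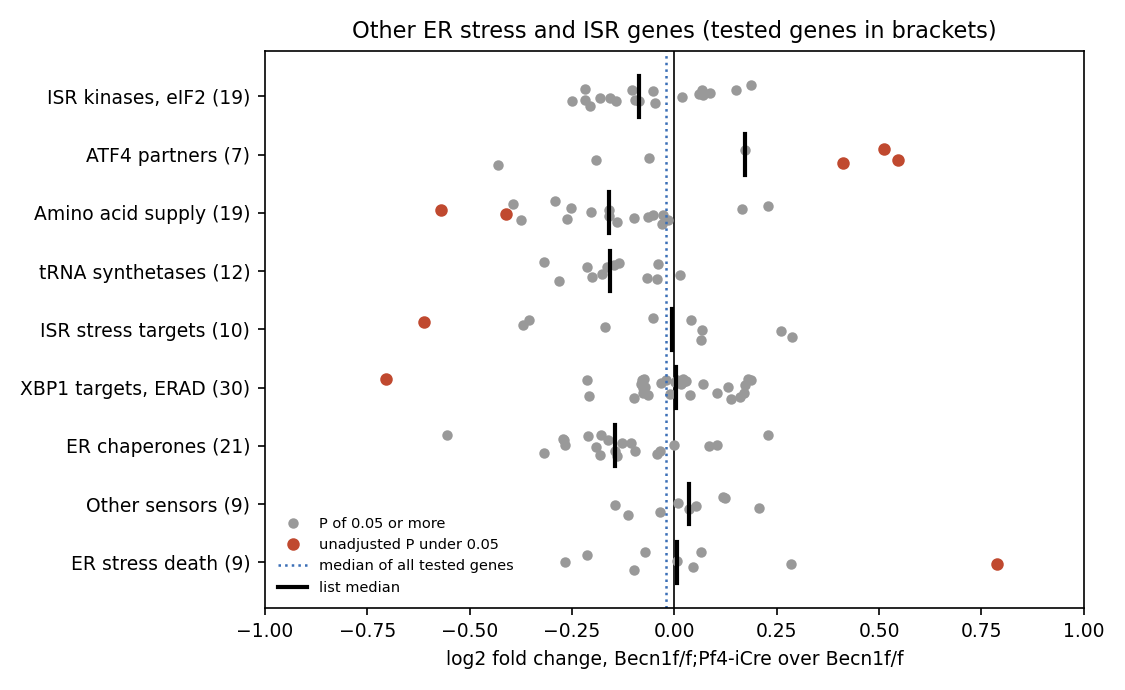
Log2 fold change of each tested gene of 9 lists of other ER stress and ISR genes (points; red, unadjusted *P* under 0.05), with the list medians as black bars and the median of all tested genes as a dotted line. The 8 red points are spread over 5 lists, and the medians lie between -0.16 and 0.17.

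The kinases and eIF2 genes of the ISR showed no call in either direction over 19 tested genes, whose log2 fold changes lay between -0.25 and 0.19. *Gcn1*, the activator of the amino acid sensor GCN2, had the smallest *P*, 0.15, with -0.25. *Ppp1r15a*, encoding the GADD34 subunit that reverses eIF2 phosphorylation, was the most abundant at 226 FPKM and had 0.07 (95% interval -0.22 to 0.36). Among 10 other ISR stress targets, the lipoprotein receptor *Vldlr* was a DEG, at 3.08 ± 0.348 CPM in Becn1f/f and 2.01 ± 0.324 CPM in the other group (SD, n = 3 each), or -0.61 on the log2 scale. It was counted at 29 to 56 reads per library, and *P* lay between 0.033 and 0.12 when single libraries were omitted. *Trib1*, the most abundant of that list at 116.7 FPKM, had 0.07.

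ER chaperones and oxidoreductases were negative for 18 of 21, with a median of -0.15 and no unadjusted *P* under 0.05. The median was -0.04 without Becn1f/f library 2 and -0.06 without Becn1f/f;Pf4-iCre library 2, and 5 genes had an unadjusted *P* under 0.05 without Becn1f/f library 1. *Calr*, the calcium-binding chaperone calreticulin and the most abundant at 774 FPKM, had -0.32 (95% interval -0.66 to 0.03). *Hsp90b1*, the ER paralog of HSP90, was at 991 ± 13.4 CPM in Becn1f/f and 991 CPM on average in the other group. Of 30 IRE1-XBP1 targets of translocation and ER-associated degradation, 16 were positive and 14 negative, with a median of 0.0043. The 1 DEG was *Derl3*, a retrotranslocation factor, counted at only 11 to 25 reads per library, at -0.70 on the log2 scale (unadjusted *P* of 0.048 in edgeR). That *P* was at least 0.062 without any 1 of the 6 libraries. *Derl3* is also a plasma cell gene. Of the 8 other tested plasma cell markers, 5 were negative and 1, *Slamf7*, was higher at an unadjusted *P* under 0.05. The sums of the list, *Derl3* included, overlapped at 123.6 to 185.4 and 146.5 to 195.2 CPM, with *Tnfrsf17* at 0 in at least 1 library. *Sec61b*, a subunit of the translocation channel and the most abundant of the list, had 0.0077.

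*Derl3*, *Calr* and *Hspa5* hold the ER stress element, which in *Derl3* and *Calr* lies on the other strand. Of the other genes named by rule, besides *Atf3*, *Vldlr* (in 1 of 2 promoters), *Aars* and *Herpud1* hold the ATF4 element. No promoter was matched for *Pmaip1*, *Trib1*, *Nars*, *Tmbim6* and *Becn1*, so these were not searched. The *Derl3* stretch is shown for comparison with that of *Hspa5* above.
Derl3, plus strand, chr10:75893202-75893320: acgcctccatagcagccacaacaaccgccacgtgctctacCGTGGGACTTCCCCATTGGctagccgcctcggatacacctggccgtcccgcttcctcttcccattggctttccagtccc
*Hspa5* was detected at 1331 to 1620 CPM and *Derl3* at 0.653 to 1.44 CPM.

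None of 9 other sensors and ATF6-processing genes was called, with log2 fold changes of -0.15 to 0.21. The ER-anchored factor *Creb3l2* had the smallest *P*, 0.22, with 0.21, and the ER membrane protein *Tmbim6*, the most abundant at 293 FPKM, had -0.15. Among 9 tested ER stress death genes, *Pmaip1*, encoding the BH3-only protein NOXA, was the 1 DEG. It was at 170.5, 149.9 and 113.3 CPM in Becn1f/f and at 199.5, 269.8 and 279.4 CPM in the other group, without overlap. The difference was 0.79 on the log2 scale (standard error 0.18), with an adjusted p of 0.21 in edgeR, and it passed the DEG thresholds in every fit tried. *Pmaip1* can be induced by ATF4 and CHOP but also by p53, and the part of any of these was not tested. *Bbc3*, of the same family, had a log2 fold change of -0.10, and of -0.26 to 0.043 under the alternative fits.

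Library patterns of the pathway genes were compared with those of *Atf4* and *Hspa5* by the root mean square distance of log2 levels around each gene's mean over the 6 libraries. Of 136 genes, the nearest to *Atf4* were *Herpud1*, *Bbc3* and *Spcs1*, at distances of 0.093, 0.096 and 0.12, where *Atf4* itself spread by 0.23 around its mean. *Herpud1*, an ER-associated degradation factor, was at 212 ± 61.6 and 183 ± 17.5 CPM (SD, n = 3 each). The nearest to *Hspa5*, which spread by only 0.10, were *Sec24d*, *Nars* and *Eif2b1*, at 0.054, 0.063 and 0.065. These were chosen for the likeness, which carries no test.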

How the data were processed

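RNA of sorted bone marrow cells labelled MKs was measured in 6 libraries, 3 per genotype, grouped by the sample titles. The authors filtered the reads, aligned them with HISAT (the submitters' processing notes also name Bowtie2 and GRCm39) and deposited estimated counts, which are not normalized and not whole for 10.3% to 11.3% of genes, and FPKM values; the counting tool is not given in the sources used here. Another 16 per-sample columns and 8 columns of group means were left out; 4 of the former belong to a library that matches no sample.

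Estimated counts were rounded, filtered with edgeR's expression filter and scaled by TMM. The test was that of edgeR 4.0.16 under R 4.3.3 (quasi-likelihood, genotype only, Benjamini-Hochberg adjustment over 12256 genes). Standard errors were derived from the log2 fold change and its F statistic, and 95% intervals use the t distribution with the fit's degrees of freedom. Alternatives used DESeq2 1.42.0 and limma 3.58.1. No pair of libraries within a genotype was a duplicate, their chi-square over its degrees of freedom being 15.2 to 50.3. The steps were tested on simulated data.

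The genes and lists were chosen with earlier results of these data known. Named are the 10 genes, *Becn1*, and, from each of 9 lists, genes with an unadjusted *P* under 0.05, the gene with the smallest *P*, the most abundant gene, and the 3 genes nearest in pattern to *Atf4* and *Hspa5*. Other genes named were chosen after their values were seen. Lists are described by counts and medians.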

Additional observations from a re-analysis of the deposited data

How the results depend on the processing

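The number of DEGs among the 10 genes was 0 with limma on log2(FPKM + 1), on all tested genes or on those with mean FPKM of at least 1, and 0 to 1 when each library was left out; the number with an unadjusted *P* under 0.05 was then 0 to 2. Of the other pathway genes, 3 DEGs became 1 with DESeq2 (1 higher, 0 lower) and 1 to 7 when each library was left out (1 to 4 higher, 0 to 3 lower), with 7 without Becn1f/f library 1 and 1 without Becn1f/f library 3 or Becn1f/f;Pf4-iCre library 2. The number lower was 1 with limma on log2(FPKM + 1) on either set, 1 without a filter on low counts and 1 with the correction for GC content and length, which was chosen after seeing the data and gave 2 higher. *Sec61b* was at -0.0036 with upper-quartile normalization and *Bbc3* at 0.043 with that correction. Leaving out each library turned the direction of 12 of the uncalled genes named by rule, with log2 fold changes of -0.27 to 0.061 for *Atf4*, -0.67 to 0.050 for *Trib3*, -0.067 to 0.46 for *Ddit3*, -0.19 to 0.079 for *Ern1*, -0.090 to 0.056 for *Hspa5*, -0.39 to 0.037 for *Herpud1*, -0.26 to 0.030 for *Bbc3*, -0.23 to 0.014 for *Spcs1*, -0.037 to 0.22 for *Trib1*, -0.094 to 0.020 for *Eif2b1*, -0.20 to 0.26 for *Sec61b* and -0.034 to 0.13 for *Sec24d*. The causes were not tested. The genotypes share replicate numbers, but same-numbered libraries deviated together with correlations of 0.07, -0.28 and 0.20, so the numbers were not taken to pair them; with the replicate number as a block there was 1 DEG among the 10 genes and 3 among the others, where *Phgdh* (-0.59 on the log2 scale) was gained and *Derl3* (unadjusted *P* of 0.074 in edgeR) lost, and *Asns* had a log2 fold change of -0.66. The low counts of *Chac1*, *Trib3*, *Derl3* and *Vldlr* limit their precision.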

Other observations

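The immediate early and heat shock genes, which respond to handling and to cytosolic protein stress, were described beside the ER stress genes. *Hspa8*, the constitutive cytosolic HSP70, was at 2209, 2499 and 1925 CPM in Becn1f/f libraries 1, 2 and 3 and at 2868, 2771 and 3151 CPM in the libraries labelled Becn1f/f;Pf4-iCre, without overlap, for a log2 fold change of 0.41 (unadjusted *P* of 0.020 in edgeR). *Hspa5*, its ER counterpart, overlapped between the genotypes. The inducible *Hspa1a* and *Hspa1b*, near-identical copies whose counts are uncertain, had 0.69 and 0.53 with an unadjusted *P* of 0.17 and 0.32. *Fos* was at 1279, 1801 and 2035 CPM in Becn1f/f and at 2023, 2318 and 3244 CPM in the other group, which overlapped, and *Egr1* had -0.24. The list median was 0.22 and lay between 0.02 and 0.31 under the alternative fits, the lowest being that without Becn1f/f;Pf4-iCre library 3. With limma on log2(FPKM + 1), 0 of the 16 genes had an unadjusted *P* under 0.05. These genes were named after their values were seen.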
